A study of Mus musculus with 4 samples.

Results

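The comparison described here is the effect of antigen challenge on bronchial epithelial cells of mice labelled Pla2g3-/-, as the difference between 2 arrays: challenged minus control. Its members are the genes well above background on at least 1 of these 2 arrays, which were 23658 of 28429 genes on the array. Of them, 22285 were well above background on both arrays, and 1373 on 1 array only. A gene of the second kind has a lower bound of its difference, written "at least", and 88 of them gave no usable bound, which left 23570 genes with a value. Such a bound holds for the main processing only, and another background correction can give a smaller value.

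The series holds 4 arrays, 1 for each combination of genotype (Pla2g3+/+ or Pla2g3-/-) and treatment (control or antigen challenged). Mice of the asthma model were injected in the abdomen with 10 µg of ovalbumin and 1.3 mg of alum on days 0 and 14, and breathed an aerosol of 1% ovalbumin for 30 min on days 26, 27 and 28. Lungs were removed 3 h after challenge and bronchial epithelial cells were isolated from them. The labels do not say how control mice were treated, so the difference may hold sensitisation as well as the aerosol. They name no strain, age or sex, and no deleted part, promoter or Cre for Pla2g3-/-. Each array carries RNA pooled from 4 samples. With 1 array a group there is no replicate error, no p-value and no test, and every value below is a description of these arrays.

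Allergen reaching a sensitised airway is met first by the epithelium, which carries ciliated, club, goblet and basal cells. These cells answer with chemokines that call in neutrophils, monocytes, eosinophils and T cells, with antimicrobial proteins and with mucus. Cytokines of type 2 lymphocytes (Il4, Il5, Il13) and of the interleukin 17 group act on the same cells. Chemokine transcripts are short-lived and belong to the early genes of this response, while mucus genes respond more slowly. Group III phospholipase A2, the product of Pla2g3, is a secreted enzyme that cuts membrane phospholipids into free fatty acids and lysophospholipids.

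Levels are given as scaled signal, the processed intensity times 1000 divided by the array's 75th percentile, so that 1000 is the 75th percentile. Differences are log2 of challenged over control, so that 1 is 2-fold. The lowest scaled signal well above background was 4.79 on the control array and 5.65 on the challenged array. A probe printed 10 times gave a median SD of 0.09 for a difference between single spots (95th percentile 0.35), over 332 such probes. For a difference, the error from the scanner's estimates was 0.20 to 0.35 for the 40 genes measured on both arrays that are named by size. These errors cover spots, not mice or pools. Unless wild type is named, "control array" and "challenged array" are those labelled Pla2g3-/-.

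Pla2g3 itself went against the label. Its brighter probe, at chr11:3394109-3394168 (mm9), read 1103 and 2099 on the control and challenged arrays labelled Pla2g3-/-. The wild-type pair read 121 and 140.5, control first. Its other probe read 96.7 and 170 on the former and 22.2 and 7.22 on the latter. Both probes were well above background on all 4 arrays, and both were higher on the arrays labelled Pla2g3-/-. The difference between challenged and control was 0.93 and 0.81, under 2-fold for each probe. A probe outside the deleted part checks nothing, so the genotype is written as a label throughout.

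The control array stood apart from the other 3 in genes of developing T cells, whose median level on it was 0.54 (log2, relative to the 75th percentile) against -2.54 on the challenged array. The wild-type control had -3.05 and the wild-type challenged array -3.66. Medians of the main lists are therefore also given with the wild-type control array in its place. Such a value holds the genotype difference too, and the wild-type control array stood apart in other genes: Pth, the parathyroid hormone gene, read 883 on it and 204 on the control array labelled Pla2g3-/-. All 20 epithelial identity genes were well above background on both arrays, among them the keratins Krt8 at 59270 and 59600 and Krt18 at 89730 and 80570 and the adhesion gene Epcam at 2403 and 2395 on the control and challenged arrays.

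Of the 23570 genes with a value, 913 (3.87%) were at least 2-fold higher on the challenged array and 804 (3.41%) at least 2-fold lower. Bounds made up 252 and 198 of these. Counts of lists below hold bounds too, and a bound can count only towards the array on which the gene was detected. The higher side held the more extreme values, with 33 genes at least 16-fold higher and 13 at least 16-fold lower. By level, the share of higher genes went from 4.31% in the dimmest of 4 equal groups of those measured on both arrays to 1.26% in the brightest, and of lower genes from 4.7% to 0.628%. Most genes moved little: 84.7% of those measured on both arrays lay within 1.5-fold, and the median of all differences was -0.06. With normexp background correction, which pulls dim values together, the counts were 377 and 317. With the wild-type control array in place of the control labelled Pla2g3-/-, 965 genes were higher, and 655 of them were among the 913 (71.7%). On the lower side there were 769, of which 219 were among the 804 (27.2%).

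**Figure D1:**
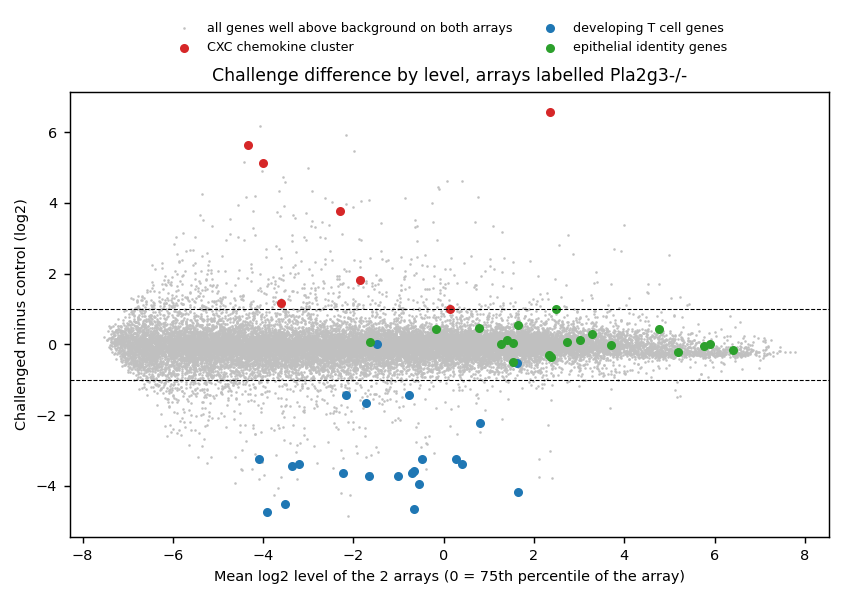
Difference between the challenged and control arrays labelled Pla2g3-/- (log2, vertical) against the mean log2 level of the 2 arrays (horizontal, 0 = 75th percentile), 1 point for each of 22285 genes well above background on both, with dashed lines at 2-fold. Genes of the CXC chemokine cluster (red) lie above the upper line or, for 1 member, next to it, most developing T cell genes (blue) lie below the lower line, and epithelial identity genes (green) lie between the lines.

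The largest differences on the higher side included Cxcl2, Cxcl3 and Cxcl5, chemokines that draw neutrophils through the receptor Cxcr2. Cxcl1 (3.77) and Ppbp (1.17), which act on the same receptor, differed less. All of them were taken as 1 list with their neighbours Cxcl15 and Pf4, of which Pf4 is not a Cxcr2 ligand. All 7 genes were above 0, 6 of them by at least 2-fold, with a median of 3.77 against -0.06 over all genes. They lie in 1 cluster on chromosome 5, and RefSeq's promoter table (GRCm38.p6) holds 6 of the 7. Of the 6 genes at least 2-fold higher, 5 were in the table. They are shown as the 170 bases before the annotated start, all on the plus strand, because members that differ together can be compared base by base. Capitals mark matches to the kB motif bound by Nf-kB.

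Cxcl1: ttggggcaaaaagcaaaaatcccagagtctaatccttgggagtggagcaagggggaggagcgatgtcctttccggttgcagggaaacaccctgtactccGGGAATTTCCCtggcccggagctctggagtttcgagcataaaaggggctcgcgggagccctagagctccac
Cxcl2: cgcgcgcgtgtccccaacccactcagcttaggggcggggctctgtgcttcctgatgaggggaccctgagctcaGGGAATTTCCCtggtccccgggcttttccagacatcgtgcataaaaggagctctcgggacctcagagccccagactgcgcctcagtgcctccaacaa
Cxcl3: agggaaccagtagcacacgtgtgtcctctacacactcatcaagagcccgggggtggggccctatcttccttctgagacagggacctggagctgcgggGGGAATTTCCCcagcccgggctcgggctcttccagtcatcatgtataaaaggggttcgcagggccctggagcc
Cxcl15: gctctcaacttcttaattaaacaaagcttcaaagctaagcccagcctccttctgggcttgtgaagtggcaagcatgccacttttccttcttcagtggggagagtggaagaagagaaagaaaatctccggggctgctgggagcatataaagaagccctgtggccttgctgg
Ppbp: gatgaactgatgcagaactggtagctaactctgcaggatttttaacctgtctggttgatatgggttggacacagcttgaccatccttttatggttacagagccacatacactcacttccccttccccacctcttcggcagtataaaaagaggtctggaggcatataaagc

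The windows are chr5:90891075-90891244 for Cxcl1, chr5:90903729-90903898 for Cxcl2, chr5:90785931-90786100 for Cxcl3, chr5:90794364-90794533 for Cxcl15 and chr5:90768348-90768517 for Ppbp (GRCm38.p6). Cxcl1, Cxcl2 and Cxcl3 held the same 11 bases, GGGAATTTCCC, in which 2 matches of the 10-letter motif overlap on opposite strands. The run begins 71, 97 and 73 bases before the start, respectively. Cxcl15 and Ppbp had no match in the window shown. Over the whole 300 bases that the table gives, on both strands, a kB match stood in 4.51% of all promoters, in 5.93% of genes with a difference here, in 9.52% of those at least 2-fold higher and in 5.02% of those at least 2-fold lower. For the AP-1 motif TGANTCA the same shares were 7.81%, 7.52%, 12.9% and 8.22%. For the C/EBP motif TTNNGNAA they were 40.7%, 39.2%, 52.7% and 46.6%. A match describes letters, not binding.

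Cxcl5, which epithelial cells make, read 524 and 49590 on the control and challenged arrays. The wild-type pair read 119.7 and 14640, control first. Its probe lies at chr5:91190490-91190549 (mm9). Its difference of 6.56 (94.6-fold, scanner error 0.20) was the largest of all genes named by size, beside 6.93 in wild type. Cxcl3 read 7.07 and 348 on the control and challenged arrays, a difference of 5.62, and 9.46 and 22.8 (1.27) on the wild-type pair. Only the challenged array labelled Pla2g3-/- was far above the others for Cxcl3, whereas for Cxcl5 both challenged arrays were. Cxcl2 went from 10.6 to 369 (5.12) and Cxcl1 from 55.4 to 755 (3.77), beside at least 2.51 and 1.45 in wild type. Cxcl15, the lung-restricted lungkine, differed by 1.82. The platelet chemokine genes Ppbp and Pf4 differed by 1.17 and 1.00, the latter just short of 2-fold before rounding and the member nearest to the threshold from below. With the wild-type control array in place, the median of the 7 was 5.2.

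Chemokines for monocytes and lymphocytes were higher too. Of the inflammatory CC chemokines, 7 of 9 were at least 2-fold higher and none lower, with a median of 3.11 (3.60 against the wild-type control array). Ccl7 read 22.2 and 703 on the control and challenged arrays (4.98), Ccl2 115 and 1244 (3.44) and Ccl12 71.8 and 621 (3.11). All 3 act on the monocyte receptor Ccr2. Ccl3 and Ccl4, the macrophage inflammatory proteins 1, differed by 4.06 and 3.34. Ccl6 differed by 2.31 here and by -0.21 in wild type, whose challenged array at 820.2 lay below its control at 951. Ccl5 and Ccl8 stayed under 2-fold, at 0.76 and 0.31. Among the interferon-induced ligands of Cxcr3, Cxcl10 read 204 and 4250 (4.38) and Cxcl9 23.0 and 284 (3.62) on the control and challenged arrays. The wild-type pair gave 1.80 and 0.07. Against the wild-type control array the median of the 3 ligands was 2.84, beside 3.62. The Cxcl11 probe read 90430 to 102900 on all 4 arrays, with a difference of -0.15. Whether so bright a probe reports that gene was not checked.

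Every one of the 5 type 2 chemokines was at least 2-fold higher, 1 of them by a bound. The median was 2.19, which is that bound (2.16 against the wild-type control array). Ccl1, a ligand of Ccr8, read 7.03 and 508 on the control and challenged arrays, and its difference of 6.17 (72.2-fold) was next to that of Cxcl5. Wild type gave at least 3.98, from 3.89 to 77. Ccl17, a ligand of Ccr4 on Th2 cells, read 195 and 4243 (4.44), and the other Ccr4 ligand, Ccl22, was at least 2.19 higher. The eotaxins, which act on Ccr3 of eosinophils, differed less: Ccl11 by 1.60 and Ccl24 by 1.37. For Ccl24 the signal was 28.0 on the control array and 72.3 on the challenged one, but 62.2 on the wild-type control. Against that wild-type array the Ccl24 difference was under 2-fold. Among homeostatic chemokines the median was -0.10. Of these, 3 of 9 passed 2-fold, namely Cxcl13 (1.30), Ccl28 (1.13) and Cxcl14 (1.06).

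**Figure D2:**
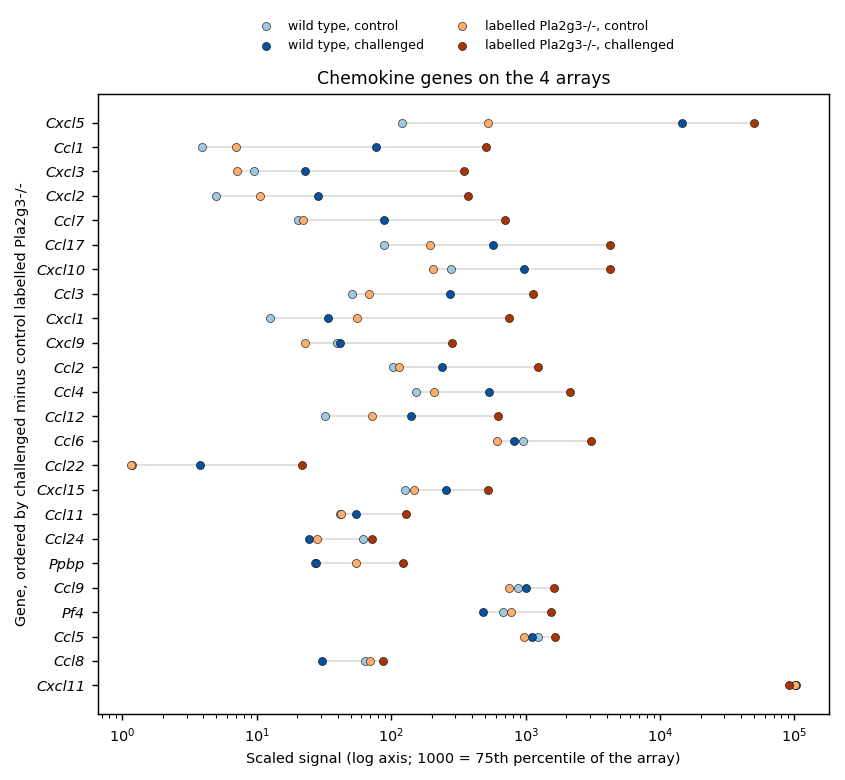
Scaled signal (log axis, 1000 = 75th percentile) of 24 chemokine genes on each of the 4 arrays, ordered by the difference between the challenged and control arrays labelled Pla2g3-/-. For Cxcl3, Ccl1, Ccl7 and Cxcl10 the challenged array labelled Pla2g3-/- (dark orange) reads 348, 508, 703 and 4250, above the other 3, while the Cxcl11 probe reads alike on all 4.

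Of 22 chemokine receptors, 3 were at least 2-fold higher and 1 lower, and the median was 0.22. Cxcr2 read 43.5 and 435 (3.32) and Cxcr1 8.48 and 53.5 (2.66) on the control and challenged arrays, and Ccr1 was at least 1.56 higher. All 3 sit on myeloid cells. Ccr9, a receptor of developing T cells, was the lower one, at 2212 and 234 (-3.24). The receptors of the type 2 chemokines, Ccr3, Ccr4 and Ccr8, differed by -0.11, -0.21 and 0.07.

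Among cytokines, the higher genes came from several families. Of the interleukin 1 and 36 family, 5 of the 13 genes with a value were higher and 1 lower. Of these, 3 rest on bounds: Il1a, Il1f9 and the lower one, Il1f5. Il1b, the main secreted interleukin 1, read 214 and 5240 on the control and challenged arrays (4.62, 24.5-fold) and 107 and 502 on the wild-type pair (2.23). Its antagonist gene Il1rn differed by 2.96, Il1a by at least 2.35 and Il1f9, which encodes interleukin 36 gamma, by at least 4.45. In the interleukin 17 and 22 list, 4 of 17 were higher and 1 lower. Il17a, the neutrophil-recruiting cytokine of Th17 and gamma delta T cells, went from 11.1 to 334 (4.90, 29.9-fold). Wild type read 11.1 and 20.4 (0.88), so only 1 of the 4 arrays was far above the others. Il17f (0.54) and Il22 (0.10) were under 2-fold. Il17c, an epithelial member, differed by 2.56, and Il12b by 2.5.

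Of the interleukin 6 family and colony stimulating factors with their receptors, 8 of 19 were at least 2-fold higher and none lower, with a median of 0.70 (0.43 against the wild-type control array). Bounds made up 2 of the 8. Il6, a driver of acute phase proteins, read 5.14 and 137 on the control and challenged arrays, at least 4.73 higher because the control value was not well above background. The ligands Osm (3.09), Csf3 (at least 2.95), Csf2 (2.85) and Csf1 (1.55) were higher too, as were the receptors Csf2rb (2.48) and Osmr (2.05). In wild type 0 of the same 19 genes were at least 2-fold higher.

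The type 2 cytokines Il5 and Il13 were at least 5.18 and at least 4.68 higher. With normexp background correction these values were 2.61 and 2.20, and that of Il6 was 2.17. Their challenged arrays read 174 and 122 here and 33.0 and 22.2 in wild type, while neither gene was well above background on either control array. Il4 read 14.0 and 56.8 (2.02), Il3 7.58 and 38.4 (2.34), and Il9 was at least 2.55 higher. The receptor chain Il4ra differed by 1.27, while Il13ra1 (-0.23) and Il5ra (-0.32) did not reach 2-fold. Gata3, which directs both Th2 cells and early T cells of the thymus, was lower, from 611 to 120.0 (-2.35). The control array was the high one of 4 here, since wild type read 72.3 and 67.4. Of the 11 genes with a value in this list, 6 were higher and 1 lower, with a median of 1.27, which was 0.06 over the genes well above background on both arrays and 0.81 against the wild-type control array.

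Epithelial alarmins are the cytokines that start type 2 responses. Their list also holds receptors, Areg, Hmgb1 and trefoil factor genes, and 4 of its 11 genes were higher and 1 lower. Besides Il33 and Tslp, the higher ones were Areg and Tff1 (1.78), and the lower one was Tff3 (a bound of -2.84). Il33 read 217 and 479 (1.14), Tslp was at least 1.91 higher and Il25 differed by -0.06. Of the EGF family, 3 of 15 were higher, the receptor ligands Areg (2.69), Hbegf (2.17) and Ereg (at least 1.74). Areg read 31.6 and 203 here and 161 and 140.0 in wild type, so its control array was the low one of 4. Hbegf was high only on the challenged array, at 961 against 239 to 280.3 in wild type. Of the tumour necrosis factor family, 5 of 17 were at least 2-fold higher, including Tnf (1.94), Lta (1.51) and the receptor gene Cd40 (2.93). Ifng, the type II interferon, read 9.9 and 48.5 (2.29).

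Genes that switch signalling on or off were higher in part. Of the Nf-kB subunits and feedback genes, 6 of 17 were at least 2-fold higher, with a median of 0.82 (0.70 against the wild-type control array). The RNase Zc3h12a, which degrades cytokine transcripts, read 155 and 954 (2.62), Bcl3 5071 and 20930 (2.05), and the deubiquitinase gene Tnfaip3 834 and 1820 (1.13). The inhibitor gene Nfkbia differed by 0.85 and the subunit genes Rela and Nfkb1 by 0.08 and 0.38. Socs3 and Cish, feedback inhibitors of cytokine receptors, read 2307 and 19750 (3.10) and 671 and 6881 (3.36). Socs1 differed by 1.05, while the kinase and Stat genes these inhibitors act on stayed under 2-fold.

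Immediate early genes of the AP-1 and Egr groups were higher in 7 of 24, with a median of 0.62. Fosl1 (1.99), Egr2 (1.62), Fosb (1.48), Atf3 (1.28), Myc (1.20), Egr1 (1.1) and Fos (1.09) passed 2-fold. In wild type the same list had a median of -0.15 and no gene passed 2-fold in either direction. Against the wild-type control array the median was 0.30. Among pattern receptors and inflammasome genes, 8 of 32 were higher, led by Mefv (pyrin) at 56.5 and 891 (3.98), followed by Nod2 (1.98), Tlr6 (1.80) and Tlr2 (1.73). Nlrp3 differed by 0.07.

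Interferon-stimulated genes differed by a small amount together: 27 of 28 were above 0, with a median of 0.52, and 5 of 28 reached 2-fold. Gbp2, a guanylate-binding protein gene, differed by 1.77 and Mx1 by 1.27. Wild type had the same median of 0.52. Of the Schlafen family, 4 of 7 were higher, with Slfn4 at 17.9 and 361 (4.34). Schlafen, Serpina3, stefin A and Mrgpra genes have close paralogs, whose probes may not tell the copies apart.

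Secreted defence proteins made up the other large block. Of the acute phase and antimicrobial genes, 12 of 24 were at least 2-fold higher and none lower, with a median of 0.96 (1.28 against the wild-type control array). The lipoprotein-bound Saa3 read 268 and 6640 (4.63), Lrg1 209.8 and 3360 (4.0) and Saa1 322 and 2507 (2.96). Lcn2, which withholds iron from bacteria, read 4984 and 51170 (3.36) and 2026 and 29960 in wild type (3.89). S100a8 and S100a9, the subunits of calprotectin, differed by 2.81 and 2.65. The brightest antimicrobial genes did not reach 2-fold, among them Reg3g (-0.26), Ltf (-0.09) and Bpifa1 (-0.34).

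The protease inhibitor genes of the Serpina3 cluster were among the highest differences. Of the list of protease inhibitors, 5 of 17 were higher and 2 lower. Serpina3n read 37.8 and 1675 (5.47, 44.4-fold), Serpina3g 397 and 7162 (4.17), Serpina3f 11.3 and 204 (4.18) and Serpina3i 21.0 and 282 (3.75). Serpina3m was the other way, from 34.1 to 14.0 (-1.28). The wild-type pair read 241 and 355 for Serpina3n (0.56). Its control array labelled Pla2g3-/- was the lowest of 4, and against the wild-type control array the difference was 2.80. Stefin A genes, cysteine protease inhibitors of myeloid cells, were higher in 4 of 8, with Stfa2l1 at 29.7 and 354 (3.57) and Cstdc4, a gene with a cystatin domain, at 16.4 and 439.7 (4.74). Timp1, the metalloproteinase inhibitor gene, read 484 and 2123 (2.13).

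Chitinase-like and resistin-like genes, products of type 2 inflammation in the mouse, split into 2 sets. Chil5 (3.47), Retnlb (at least 3.34), Retnlg (3.31), Retnla (2.52) and Chil1 (2.31) were higher. Chil3 and Chil4 were not: Chil4 read 5486 and 5837 (0.09) and Chil3 10170 and 13350 (0.39). On the wild-type pair Chil4 read 348 and 4100 and Chil3 1462 and 8160, differences of 3.56 and 2.48. The control array labelled Pla2g3-/- was therefore already near the challenged arrays for these 2 genes, and the wild-type control array was the low one. The list median was 0.89 here and 1.99 in wild type, and 3.03 with the wild-type control array in place.

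Proteases and blood cascade genes added single members. Metalloproteinases and their inhibitors were higher in 6 of 23 and lower in 2, with Mmp9 at 25.4 and 93.3 (1.88), Mmp13 at 9.64 and 27.5 (1.51) and the stromelysin gene Mmp10 at least 1.98 higher. Complement genes were higher in 6 of 22, among them the receptor for C5a, C5ar1 (2.49), C4b (1.37) and factor B, Cfb, at 20830 and 51800 (1.31). Of the coagulation and fibrinolysis genes 4 of 18 were higher and 1 lower. Plaur, the urokinase receptor gene, read 600.2 and 2315 (1.95) and its ligand gene Plau 12.3 and 34.0 (1.47). On the wild-type pair Plaur read 1601 and 1254, so its control labelled Pla2g3-/- was the lowest of 4. Junction genes had a median of 0.17, with Cldn2 at 1.71 and Cldn1 at 1.16.

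Most mucus genes stayed within 2-fold. Of the mucin genes, 2 of 7 were at least 2-fold higher and none lower, with a median of 0.50 and a highest difference of 1.72. The gel-forming mucin gene Muc5b read 73290 and 103900 (0.50) and Muc5ac 179 and 397 (1.15). Of the goblet cell genes without mucins, 3 of 20 reached 2-fold: Slc5a1 (1.12), the lectin gene Itln1 (1.1) and Spdef (1.05), the transcription factor of goblet cells. Clca1 differed by 0.63, from 76800 to 118600, and by 1.89 in wild type, whose control read 28520. Among ion transport genes, 3 of 21 were higher. Slc26a4 (pendrin), an anion exchanger, read 12.8 and 235 (4.19) here and 149.7 and 3690 (4.62) in wild type. The 2 differences are close, yet both levels were lower on the arrays labelled Pla2g3-/-, and against the wild-type control array the difference was 0.65. Kcnj15, a potassium channel gene, differed by 4.09 and Cftr, the chloride channel gene, by 1.27.

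In lipid mediator genes, single members differed and the families did not. Ptgs2, the inducible cyclooxygenase, read 97.3 and 759 (2.96) and 216 and 247 in wild type (0.20). Of the 4 arrays its control was the lowest and its challenged array the highest. The prostaglandin synthases Hpgds (1.16) and Ptgis (1.09) were higher, while Akr1c18 (-1.26) was lower and Hpgd, which breaks prostaglandins down, was lower at -1.0. Of the secreted phospholipase A2 genes other than Pla2g3, Pla2g2d differed by -1.14, and 2 dim probes of Pla2g5 differed in sign (1.02 and -0.87). Pla2g4c, a cytosolic phospholipase A2, read 101 and 783 (2.95) and 8.64 and 141 in wild type (4.03). Pla2g4a, the main arachidonate-releasing enzyme, differed by 0.04. Alox12e differed by 2.55, Alox5 by 0.52 and Alox15 by 0.86.

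Of the leukotriene and formyl peptide receptors, 3 of 10 were higher and none lower. Prostanoid receptors were 1 higher and 1 lower of 8, and lysophospholipid receptors 1 higher and 3 lower of 20, with medians of -0.12 and -0.31. The formyl peptide receptor genes Fpr2 (33.5 and 443) and Fpr1 (27.8 and 352) differed by 3.73 and 3.67. The platelet-activating factor receptor gene Ptafr differed by 2.48 and the leukotriene B4 receptor gene Ltb4r1 by 1.11. The thromboxane receptor gene Tbxa2r was lower, from 219.9 to 33.6 (-2.71), with 36.3 and 26.4 on the wild-type pair. The lysophospholipid receptor genes Gpr174 (-2.01), P2ry10 (-1.81) and S1pr5 (-1.25), found on lymphocytes, were lower too.

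In metabolic and stress lists, single genes stood far from the median of their list. Acod1, which makes the antimicrobial metabolite itaconate in myeloid cells, had the largest difference among them, at 28.7 and 1742 (5.92, 60.7-fold) and 47.8 and 170.1 in wild type (1.83). Arg2 (3.54) and Arg1 (1.5), arginases, were higher, and Nos2 differed by 0.08. Of the unfolded protein response genes, 5 of 26 were at least 2-fold higher and the median was 0.63. Among them were Chac1 (1.86) and Xbp1 (1.13), a transcription factor gene of this response. The wild-type median was 0.54. No heat shock gene reached 2-fold in either direction. Sterol and fatty acid synthesis genes had a median of -0.20 and oxidative phosphorylation genes of -0.13, beside -0.06 over all genes. With the wild-type control array in place these medians were -0.08 and 0.05. Cytochrome P450 genes had a median of -0.39 and conjugating enzymes of -0.28. Adh1, an alcohol dehydrogenase gene of the second list, differed by -1.14.

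Clock genes were lower on balance, with 3 of 19 at least 2-fold lower, 1 higher and a median of -0.51 (-0.52 against the wild-type control array). Dbp, a clock output gene, read 24110 and 6899 (-1.80), and Nfil3, which opposes it at the same sites, read 875 and 4654 (2.41). The wild-type pair gave -1.42 and 1.23. The labels give no time of day for any group. Ribosomal protein genes were all slightly lower (25 of 25 under 0, median -0.26, against -0.03 in wild type), and none reached 2-fold. Against the wild-type control array their median was -0.14.

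Genes named by size that belong to none of these groups were few. On the higher side they were the long non-coding RNA gene Mirt2, at 17.8 and 429 (4.59), and the Mas-related receptor genes Mrgpra2a, at 29.4 and 593 (4.33), and Mrgpra6, at 5.55 and 106 (4.25). Among bounds, Olr1, a receptor for oxidised lipoprotein, was at least 4.0 higher, followed by Nat8f6 (at least 3.58), Prl3a1 (at least 3.40) and the olfactory receptor gene Olfr968 (at least 3.36). On the lower side Col2a1, a cartilage collagen gene, read 84.8 and 8.33 (-3.35), Syt13 1147 and 92.6 (-3.63) and Tmem151b 321 and 16.8 (-4.26). In these 3 genes the wild-type arrays lay near the challenged array, between 7.97 and 57.5. The 4 lower bounds were Myl10, from 188 to a value not well above background, Fnd3c2, Tff3 (already counted in the alarmin list) and Prss57. In the main processing these 4 genes were lower by at least 33.2-fold, 13.1-fold, 7.17-fold and 6.65-fold. With normexp background correction their differences were smaller, at -2.66, -1.72, -1.04 and -1.0 in the same order. Against the wild-type control array the bounds of the first 3 were -0.07, -0.49 and -0.22, which do not show a 2-fold difference.

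The lower side was led by genes of developing T cells, the immature thymocytes that rearrange their receptors. Of 22 such genes, 20 were at least 2-fold lower, with a median of -3.42. Ptcra, the pre-T cell receptor chain, read 341 on the control array and 12.7 on the challenged array (-4.75, 26.9-fold lower). On the wild-type pair it read 11.3 and 11.9. Only the control array labelled Pla2g3-/- was high. The recombinase genes Rag1 and Rag2 read 2696 and 176 (-3.94) and 350.2 and 33.6 (-3.38), and Dntt, the terminal transferase gene, 13210 and 730.1 (-4.18). Endou, an endoribonuclease gene, read 3194 and 126 (-4.66) and H2-T3, the thymus leukaemia antigen, 418 and 18.3 (-4.52). For Rag1, Rag2 and Dntt the challenged array, though lower than its control, was still above both wild-type arrays, which read 48.5 and 32.2, 8.07 and 10.8 and 273 and 304.

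Transcription factors and surface genes of the T lineage gave the same picture. Tcf7 read 1802 and 137 (-3.72), Lef1 2205 and 183 (-3.59), Bcl11b 752 and 60.7 (-3.63) and Satb1 4258 and 406 (-3.39). Cd8a and Cd8b1, the co-receptor of cytotoxic and immature T cells, differed by -3.73 and -3.65, and Themis by -3.45. Of 24 genes of T cell identity in general, 16 were lower and none higher, with a median of -2.29. The kinase gene Lck read 13230 and 1402 (-3.24), and the adaptor genes Sh2d1a (-4.22) and Trat1 (-3.81) were lower. In the same list 5 genes were above 0, all under 2-fold, among them Icos (0.24), Ctla4 (0.77) and Cd69 (0.95). Nsg2 (-3.55) and Slc16a5 (-3.51) were also among the 20 lowest, though the other measured probe of Slc16a5 gave -0.28.

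**Figure D3:**
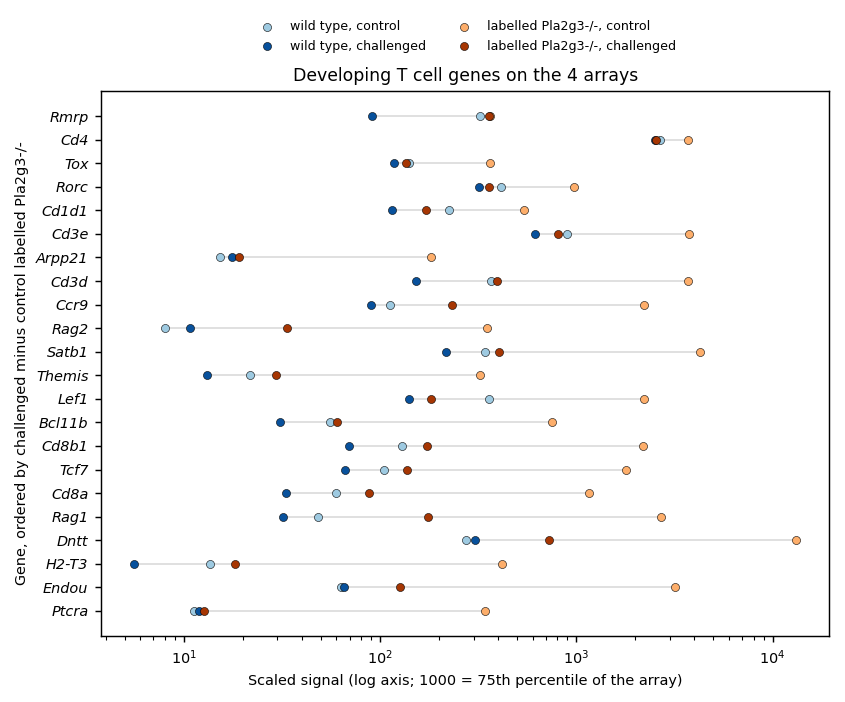
Scaled signal (log axis, 1000 = 75th percentile) of 22 genes of developing T cells on each of the 4 arrays, ordered by the difference between the challenged and control arrays labelled Pla2g3-/-. The control array labelled Pla2g3-/- (light orange) lies to the right of the other 3 for most genes. For Ptcra it reads 341 against 11.3 to 12.7.

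With the wild-type control array in place, the median of the developing T cell genes was 0.29 and that of the T cell identity genes 0.09, so neither list was lower. Of the 20 lowest genes, none stayed at least 2-fold lower against that array: 19 changed sign and Lef1 gave -0.97. Of the 585 genes at least 2-fold lower that were well above background on all 4 arrays, 256 (43.8%) had a control array at least 2-fold above each of the other 3, and 50 (8.55%) a challenged array at least 2-fold below each of the other 3. For the 630 higher genes, 271 (43.0%) had a challenged array at least 2-fold above each of the other 3, and 31 (4.92%) a control array at least 2-fold below them. In all, 22073 genes were well above background on all 4 arrays. The 585 and 630 were chosen by the difference between the challenged and control arrays, so that comparison was met in advance. The shares describe the chosen genes and test nothing. The summed scaled signal of the 22 developing T cell genes was 48680 on the control array, 7204 on the challenged array, and 6638 and 5036 on the wild-type pair. The part of such cells in the lower values was not tested. In pooled cells, fewer cells of a type and less RNA per cell cannot be told apart. Thymic stroma genes were lower in 3 of 9: Foxn1 (a bound of -2.13), Prss16 (-1.18) and Pax1 (-1.07), at scaled signals of 24.8, 119 and 55.4 on the control array.

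Cell division genes were lower by small amounts. All 29 members with a value were below 0, 1 of them (Aurkb) as a bound. The median was -0.56, and Rrm2 (-1.44) and Kif11 (-1.02) were at least 2-fold lower. Of the histone genes, 3 of 10 were lower, among them H1f5 at 2923 and 506 (-2.53) and H2ac4 at 10840 and 2246 (-2.27). With the wild-type control array in place these medians were 0.35 and 0.23. The retinoic acid-degrading enzyme gene Cyp26b1 read 4109 and 734 (-2.48) and was high on the control array only, with 1090 and 1579 in wild type. Whether these genes came from the T cells was not tested.

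Epithelial cell type genes mostly stayed within 2-fold. None of the 20 epithelial identity genes reached 2-fold (median 0.05, range -0.51 to 1.00, the last just short of 2-fold before rounding). The same was true of 29 ciliated cell genes (median 0.13) and 16 club cell genes (median -0.23). Scgb1a1, the club cell secretoglobin, read 237000 and 203600 (-0.22) and Foxj1, the regulator of motile cilia, 8720 and 11120 (0.35). Basal cell genes had a median of -0.07. Their 2 higher members were Krt14 (1.43) and Icam1 (1.67), the latter an adhesion gene that other cells also express. Of the keratin and cornified envelope genes, 6 of 20 were higher, among them Krt6a (1.89), Sprr2d (at least 2.60) and Sprr1a (1.71), known from stressed and wounded epithelium. Alveolar type 2 genes were 2 higher and 1 lower of 16, with the surfactant gene Sftpb at 3751 and 1498 (-1.32).

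Markers of other cells were present on both arrays, and some were higher beside the inflammatory genes. Of 29 neutrophil genes, all well above background on all 4 arrays, 16 were at least 2-fold higher and 1 lower, with a median of 1.33. Against the wild-type control array the median was 1.29. In wild type 11 of the 29 were higher, with a median of 0.23. Cxcr2, Fpr1, Fpr2, Lrg1, S100a8 and S100a9, described above, are members of this list too. Their summed scaled signal was 242300 on the control and 288700 on the challenged array, against 251800 and 263600 on the wild-type pair. Those sums rest mostly on the bright probes of Ltf and Csf3r, which differed by -0.09 and -0.19. The Csf3r probe, placed at chr19:60157892-60157951 (mm9), read 32720 to 53470 on all 4 arrays. Whether it reports that gene was not checked. The surface lectin genes Clec4d at 132 and 2313 (4.13) and Clec4e at 64.8 and 955 (3.88), the collagenase gene Mmp8 at 14.4 and 198 (3.78) and G0s2 (2.94) were higher. The granule genes of immature neutrophils were not: Elane differed by -0.07, Prtn3 by 0.33, Camp by 0.50 and Mpo by -1.12. The part of neutrophils in the chemokine, cytokine and acute phase values was not tested.

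Of 28 macrophage and monocyte genes, 6 were higher and none lower, with a median of 0.46 (0.66 against the wild-type control array) and summed signals of 92530 and 97380 on the control and challenged arrays. The scavenger receptor genes Marco at 903 and 3455 (1.94) and Msr1 at 12.0 and 62.0 (2.37) were among them, while the complement genes C1qa, C1qb and C1qc differed by 0.52, 0.44 and 0.41. The lectin receptor genes Clec7a (2.08) and Clec4n (2.08) of myeloid cells were higher. Endothelial genes were higher in 8 of 18, with a median of 0.87 and summed signals of 5830 and 7910. Vwf read 563 and 1735 (1.62), but 1259 and 1330 on the wild-type pair, so the control array was the low one. Against the wild-type control array the endothelial median was 0.28.

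No B cell gene of 17 reached 2-fold here (median 0.13), whereas 9 of 16 were lower in wild type, whose control array was the high one (Ms4a1 read 1416 and 481 there and 506 and 569 here). Red cell and platelet genes were lower in 5 of 14, including Ahsp (-1.90) and Alas2 (-1.15) of red cells. No mast cell, basophil or eosinophil gene was higher, and 1 of 17 was lower. The eosinophil granule genes Epx and Prg3 were not well above background on either array. Fibroblast and collagen genes had 0 of 22 at 2-fold in either direction. Of tissues near the airway, 1 of 15 fat genes was lower, 1 of 13 muscle genes was higher, and of 11 parathyroid and thyroid genes 1 was higher and 1 lower.

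**Figure D4:**
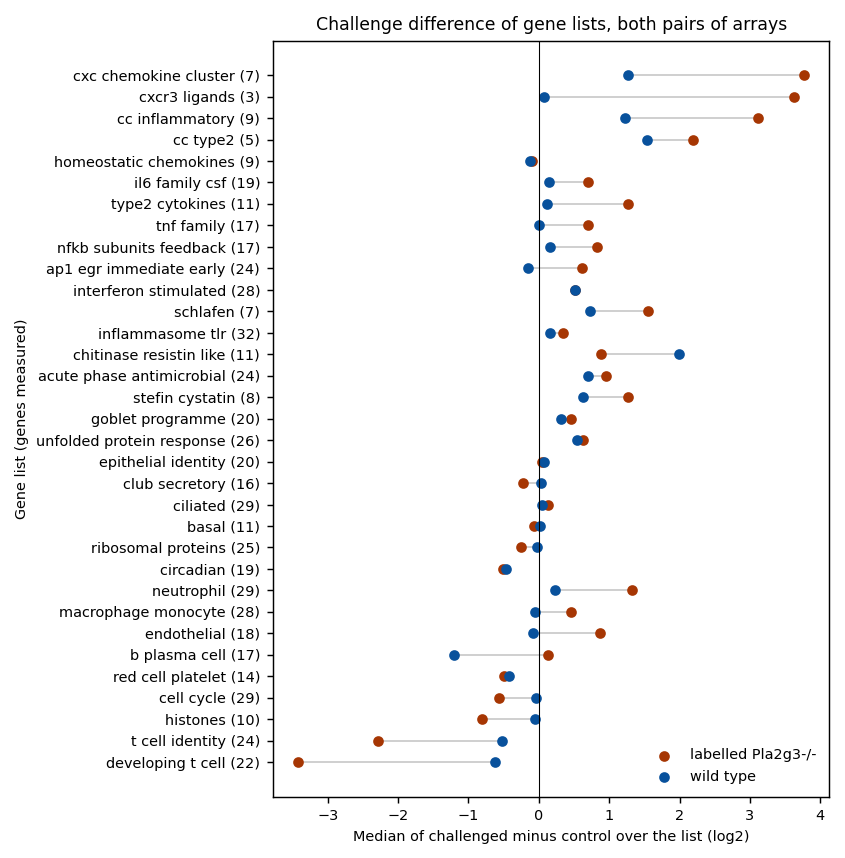
Median difference of challenged minus control (log2) over 33 gene lists, for the arrays labelled Pla2g3-/- (dark orange) and wild type (blue), with the number of genes with a value in the former in brackets. The 4 inflammatory chemokine lists have the highest medians for the arrays labelled Pla2g3-/-, up to 3.77, and T cell lists the lowest, down to -3.42. Epithelial identity, club and ciliated lists lie near 0 in both pairs.

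Beside these values, the wild-type pair had fewer genes past 2-fold: 430 of 23902 genes (1.8%) were higher and 400 (1.67%) lower. The 2 pairs share no array, and whether their differences differ was not tested, since each rests on 1 array a group. Over the genes with a value in both pairs, 180 were higher in both, which is 22.9% of those higher here and 48.4% of those higher in wild type. The lower genes had 84 in both (11.1% and 24%). Another 44 genes were higher here and lower in wild type, and 52 the reverse. Cxcl5, Slc26a4, Lcn2 and Pla2g4c were at least 7-fold higher in both pairs. Serpina3n, Il17a, Osm, Fpr2 and Mefv were at least 8-fold higher here and under 2-fold different in wild type.

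**Figure D5:**
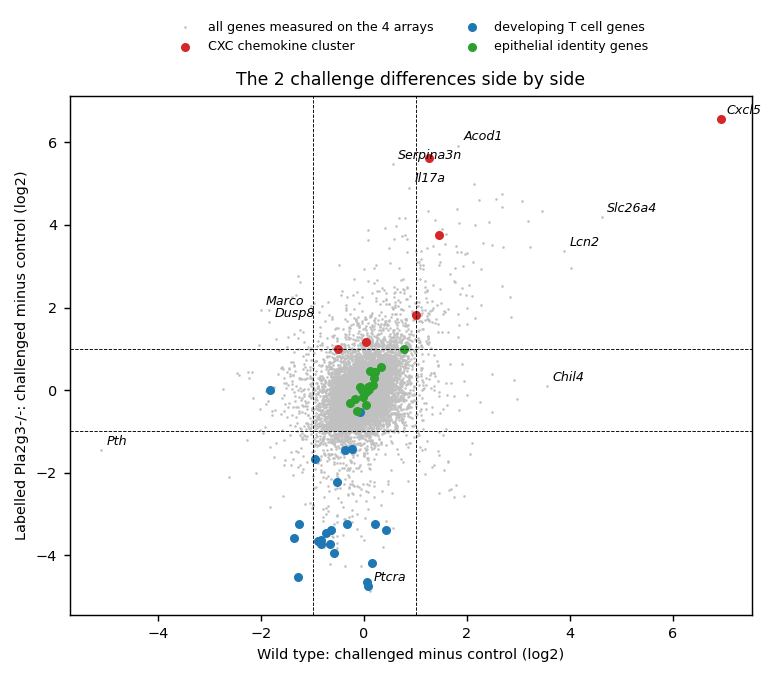
Challenged minus control (log2) for the arrays labelled Pla2g3-/- (vertical) against wild type (horizontal), 1 point per gene measured on all 4 arrays, with dashed lines at 2-fold. Cxcl5 is high in both (6.56 and 6.93), Acod1 is higher on the vertical axis (5.92 against 1.83), Chil4 on the horizontal (0.09 against 3.56), and 20 of 22 developing T cell genes (blue) lie below the lower line on the vertical axis, against 4 of 22 left of the line on the horizontal axis.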

How the data were processed

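The deposited scanner files hold 1-colour (Cy3) intensity values from Agilent Feature Extraction 11.5.1.1, with detrending background correction and mm9 probe positions, per the file headers. The value table deposited by the authors holds the same intensities divided by each array's 75th percentile, as a comparison with the scanner values showed. Column medians were 0.0875, 0.0879, 0.0860 and 0.0850. Each labelling used 200 ng of RNA, per the labels. All 4 arrays lie on 1 slide, 1 group to a position, so effects of position cannot be told apart from those of group.

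From 43020 spots that are not controls, log2 of the processed signal minus the array's 75th percentile (1808 to 1986 intensity units) was taken. Outlier spots (128 to 155 an array) were left out, none was saturated, and spots of 1 of 39429 probes were averaged. Detection (well above background) ranged from 78.7% to 81.5% of probes. Symbols came from RefSeq (GRCm38.p6) for 28751 probes and from the file for 8216; 2462 had none. A gene was represented by its brightest probe. Of 198 genes with several probes and a 2-fold difference, 87.4% had all probes of 1 sign. A bound is the brighter value minus the higher of the dim array's lowest detected level and the dim probe's own.

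Genes named are Pla2g3, the 20 largest differences and up to 8 bounds a direction (symbol not a clone name, not below the 25th percentile of detection level, probes of 1 sign), and members of 84 lists. Members and lists were chosen with earlier results of these data known. 19 list members are not on the array. Tools were Python 3.11.15, pandas 2.3.3, R 4.3.3 and limma 3.58.1 (normexp, offset 50). The calculation was tested on simulated data.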

Additional observations from a re-analysis of the deposited data

Results flagged for a closer look

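Each of the following was at least 2-fold higher in one challenge difference and at least 2-fold lower in the other. Each rests on 1 array a group, and none of these differences between the pairs was tested. Marco, a macrophage scavenger receptor gene, differed by 1.94 on the arrays labelled Pla2g3-/- and by -2.01 in wild type. Its 4 scaled signals were 903 and 3455 on the former and 2332 and 579 on the latter. Dusp8, a MAP kinase phosphatase gene, differed by 1.64 and -1.85, and its wild-type control array at 155 and challenged array labelled Pla2g3-/- at 117 were the high ones. The eotaxin gene Ccl24 differed by 1.37 and -1.35. Its signals were high on the wild-type control (62.2) and the challenged array labelled Pla2g3-/- (72.3). Their partner arrays read 24.3 and 28.0, respectively. Foxn1, the thymic epithelial transcription factor, gave a bound of -2.13 against 1.86, from scaled signals of 24.8 on the control and 22.3 on the wild-type challenged array, both dim.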

How the results depend on the processing

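The count of genes at least 2-fold higher (913) was 377 with normexp background correction and 536 when genes below the 25th percentile of detected probes were left out. The count of lower genes (804) was 317 and 504 under the same settings, and 1293 with no filter on dim probes. Other settings kept both counts within 1.5 times: quantile normalization, median centring, only genes measured on both arrays, averaging the probes of each gene, the deposited value table and the wild-type control array in place. No scaling moved the median of all genes by over 0.1.

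With the wild-type control array in place of the control labelled Pla2g3-/-, list medians changed sign for developing T cells (0.29), T cell identity (0.09), cell cycle (0.35) and histones (0.23). So did Ptcra (0.17), Endou (1.00), H2-T3 (0.42), Tmem151b (0.16), Sh2d1a (0.72), Dntt (1.42), Rag1 (1.86), Trat1 (0.61), Cd8a (0.55), Tcf7 (0.39), Cd8b1 (0.42), Syt13 (0.69), Bcl11b (0.12), Nsg2 (0.38), Slc16a5 (0.41), Themis (0.44), Satb1 (0.25), Rag2 (2.06) and Col2a1 (0.06). The 20 highest genes other than Slc26a4 (0.65) stayed at least 2-fold higher under all 9 settings. Some of these settings could not alter them. The deposited value table holds the same intensities, and the genes were chosen as measured on both arrays and not dim. The settings that change only those filters therefore gave the same values. Low signal limits the dim genes. Normexp moved 49 of 53 named genes by more than the spread between spots and 31 of 84 list medians: Ccl1 had 3.81 in place of 6.17, Cxcl3 3.18 in place of 5.62, Il17a 3.20 in place of 4.90, Il5 2.61 in place of at least 5.18 and Mrgpra6 1.81 in place of 4.25, while bright Cxcl5 had 6.47. Besides the 4 list medians named above, the wild-type control array moved 51 others. Some of these were nearer 0 and changed sign as well, among them B cell genes (-1.2 in place of 0.13) and prostanoid receptors (0.61 in place of -0.12). A gene with a bound has no value where both arrays must be above background. No paired analysis was possible because each group has 1 array.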
